A study of Mus musculus with 9 samples.

Results

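The late erythroid state described here is that of the mouse line G1E-ER4 after 24 h in estradiol, set against the same line without estradiol. It rests on 5 of the 9 libraries of the study, which are 2 libraries labelled 24 h and 3 libraries labelled without estradiol, called 0 h here. G1E cells are mouse progenitors of red cells without GATA1, a transcription factor that red cells need to mature. G1E-ER4 adds GATA1-ER, a fusion of GATA1 to an oestrogen receptor, through which 100 nM estradiol switches GATA1 on, and both groups carry this fusion. The lines were kept in erythropoietin and kit ligand. There is no 24 h culture without estradiol among these groups, so time in culture, the hormone itself and GATA1 activity cannot be told apart. The labels do not say whether libraries of a group came from separate cultures, so every p-value measures only the spread between libraries of a group. That spread was estimated over all 9 libraries of the study.

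The assay was PRO-seq, a nuclear run-on of RNA that polymerase is still making, so the counts describe transcription rather than stored mRNA. One table of deposited counts covers gene bodies and a second covers dREG peaks, which are sites where polymerase initiates, at gene starts and at enhancers. Of 24391 listed genes 13825 had enough reads to be tested, and of 42114 listed peak entries, called elements here, 35158 were tested. Levels are given as CPM after TMM scaling and are not corrected for gene length, so they are not compared between genes. A gene or element rose or fell where its adjusted p was under 0.05 in the quasi-likelihood test of edgeR, with p-values adjusted over the whole table by the Benjamini-Hochberg method. Changes are log2 values of 24 h minus 0 h with a standard error (SE). The SE was worked back from the test, as the size of the change over the square root of its F statistic, and is approximate. In bulk libraries fewer cells of a kind and less transcription per cell cannot be told apart.

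As background, red cell precursors that receive the GATA1 signal leave a dividing progenitor state that depends on the receptor KIT and on MYC. They then build haemoglobin, haem and a flexible membrane skeleton. They shrink, condense the nucleus, clear their organelles through autophagy and lysosomes, and in the end stop making ribosomes. The mouse proteins named below are described by these textbook roles, which are not results of these data.

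Total gene-body reads ran from 70703867 to 139945759 in the 0 h libraries and were 90192788 and 97942959 in the 24 h libraries. The precursor of ribosomal RNA, listed as Rn45s, took 3.03%, 3.68% and 6.79% of these reads at 0 h and 1.98% and 1.63% at 24 h. The highest share was that of 0 h replicate 3, and without that library the fall of Rn45s was not called, with a log2 change of -0.48. The call was also lost without either 24 h library (-1.09 and -0.80). The erythroid markers Slc4a1, Alas2, Hbb-b1, Tfrc and Klf1 were present at 24 h and had risen, and Epor was read in both groups with no call.

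At 24 h, 4014 genes (29.0%) had risen and 4246 (30.7%) had fallen, so that 59.7% of the tested genes were called. The change was large for many of them. Changes of 2 or more on the log2 scale were called up in 809 genes (5.85%) and down in 1633 (11.8%), and changes of 4 or more up in 132 (0.955%) and down in 384 (2.78%). The libraries of both groups did not overlap for 74.8% of the tested genes. The genes that rose took 38.0%, 37.7% and 37.0% of the reads outside Rn45s in the 0 h libraries and 66.1% and 68.4% in the 24 h libraries. Those that fell went from 33.2%, 33.0% and 33.5% of reads to 11.6% and 10.2%. The 10 genes with most reads took between 1.68% and 2.22% of the reads at 0 h and 3.20% and 3.01% at 24 h, so transcription was spread over many genes at both times. Of the called genes 48.6% had risen with TMM scaling and 30.8% with scaling by total counts, which moved the median change of all genes from -0.07 to -0.45. Directions below hold relative to the bulk of genes, and groups whose median turned sign under total counts are named as such.

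The 10 genes with the largest gain in mean CPM included Sptb, Csf2rb2 and Csf2rb. Sptb, which encodes the beta spectrin of the red cell skeleton, went from 344, 314 and 268 CPM in the 0 h libraries to 6244 and 5386 CPM in the 24 h libraries. Csf2rb2, a mouse form of the beta chain shared by the receptors for interleukin 3 and related cytokines, went from 18.3, 20.4 and 21.7 CPM to 3841 and 3542 CPM. Its neighbour and near-copy Csf2rb, the common beta chain itself, went from 103, 136 and 104 CPM to 3618 and 2765 CPM. All 3 were far apart between the groups, with log2 changes of 4.24 ± 0.20, 7.52 ± 0.22 and 4.80 ± 0.27 (SE) and adjusted p-values of 3.98e-07, 5.29e-08 and 7.87e-07 in edgeR's test. Reads that match both beta chains cannot be assigned to either. The others among the 10 largest gains were those of Tmem131, Atp8a1, Zfpm1, Baz1a, Adk, Chd2 and Ccdc88c. Atp8a1, a flippase that moves phospholipids to the inner leaflet of membranes, rose from 442, 409.7 and 358 CPM to 3143 and 3692 CPM. Adk, the adenosine kinase that salvages adenosine, rose from 881, 821 and 856 CPM to 3579.6 and 2928 CPM. Baz1a, a subunit of a chromatin remodeller, rose by 2.33 ± 0.12 (SE) and Chd2, a remodelling helicase, by 1.59 ± 0.14 (SE).

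Rn45s apart, the largest losses in mean CPM included those of Ncl, Cdk6 and Bcl11a. Ncl, which encodes nucleolin and carries small nucleolar RNAs in its introns, went from 1245, 1153 and 1376 CPM to 306 and 246 CPM, a log2 change of -2.19 ± 0.14 (SE) with an edgeR adjusted p of 1.63e-06. Cdk6, a kinase that drives progenitors into S phase, went from 629.9, 689.9 and 861 CPM to 86.0 and 86.0 CPM. Bcl11a, a repressor of fetal globin genes, went from 764, 1064 and 977 CPM to 204 and 98.9 CPM. Each of these 3 genes lay lower in both 24 h libraries than in any 0 h library. The others among the 10 largest losses were those of Sipa1l1, Cmss1, Fut8, Arl15, St6galnac3 and Cdk8. An element inside Cdk8 held 592437 reads at 0 h and 142473 at 24 h, against 650893 and 235909 over the gene body. One inside Cmss1 and Filip1l held 633864 and 176335 reads, against 712022 and 188785 over the body of Cmss1. The element in Cdk8 changed by -1.22 ± 0.29 (SE), more than the gene body. In Cmss1 the element changed by -0.96 ± 0.31 and the body by -0.90 ± 0.22 (SE), with elements and bodies scaled separately. The losses of Cdk8 and Cmss1 may thus lie mostly in those elements. A loss over the rest of Cdk8 is not shown by these values, and the rest of each gene was not tested. Fut8, which adds the core fucose to glycoproteins, changed by -1.90 ± 0.22 (SE), and Sipa1l1, a regulator of Rap GTPases, by -2.30 ± 0.28 (SE). Cdk8, the Mediator kinase, changed by only -0.51 ± 0.16 (SE), and its call was lost without 24 h replicate 1 (-0.51) and without 24 h replicate 2 (-0.49). The call of St6galnac3 was lost without 24 h replicate 2 (-0.79).

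**Figure D1:**
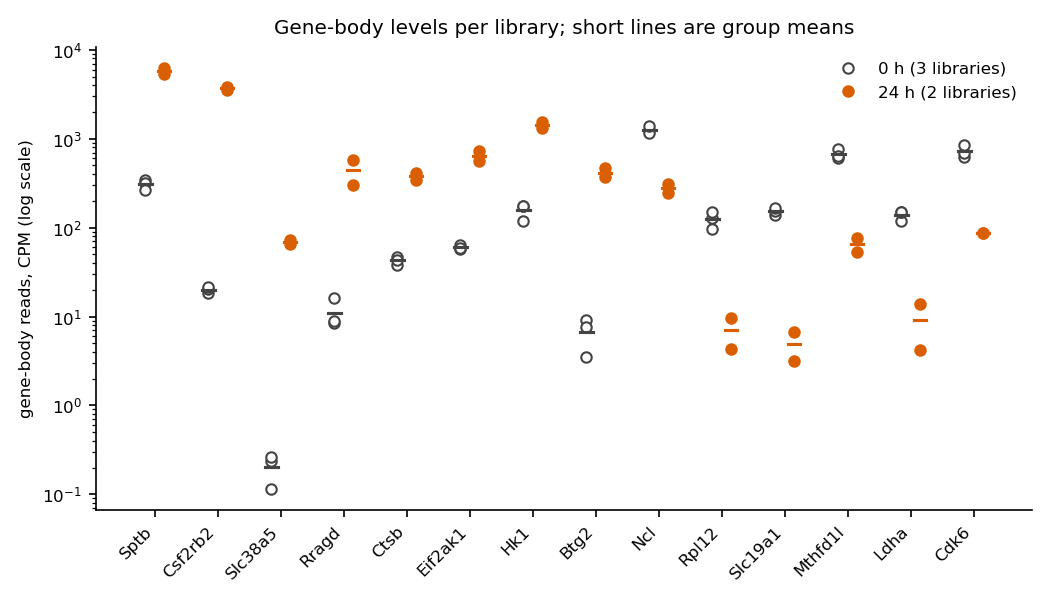
Gene-body level of 14 genes in CPM on a log scale, with 0 h libraries as open circles, 24 h libraries as filled circles and group means as short lines. For each gene the 24 h libraries lie apart from the 0 h libraries, from 344, 314 and 268 CPM to 6244 and 5386 CPM for Sptb and from 629.9, 689.9 and 861 CPM to 86.0 CPM in both 24 h libraries for Cdk6.

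Promoter sequences are shown for 6 genes that changed over both the gene body and the start element, 4 that rose and 2 that fell. They were picked from the leading genes after their values and sequences had been seen, so the motifs they hold are no sample of promoters. They run from 250 bases before to 50 bases after the start, come from RefSeq on build GRCm38.p6 and are printed on the gene's own strand. Capitals mark GATA hexamers and CACCC-type octamers, each searched on both strands, with overlapping matches counted. The hexamer, of the kind that GATA factors bind, was AGATAA or AGATAG or a form with T first, TGATAA or TGATAG. The octamer, of the kind that KLF1 and SP factors bind, was CCNCNCCC. Alas2 encodes the erythroid first enzyme of haem synthesis. Slc38a5 encodes a glutamine transporter. Nrl encodes a bZIP transcription factor best known from photoreceptors. Ms4a2 encodes the beta chain of the mast cell IgE receptor and Cpa3 the carboxypeptidase of mast cell granules.
Alas2, chrX:150547167-150547466 (plus strand): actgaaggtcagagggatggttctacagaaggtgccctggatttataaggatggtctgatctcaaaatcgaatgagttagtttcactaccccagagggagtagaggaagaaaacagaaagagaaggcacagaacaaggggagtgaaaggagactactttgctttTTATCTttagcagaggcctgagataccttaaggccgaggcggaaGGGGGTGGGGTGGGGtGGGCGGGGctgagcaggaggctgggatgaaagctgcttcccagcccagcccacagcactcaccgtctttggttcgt
Slc38a5, chrX:8271131-8271430 (plus strand): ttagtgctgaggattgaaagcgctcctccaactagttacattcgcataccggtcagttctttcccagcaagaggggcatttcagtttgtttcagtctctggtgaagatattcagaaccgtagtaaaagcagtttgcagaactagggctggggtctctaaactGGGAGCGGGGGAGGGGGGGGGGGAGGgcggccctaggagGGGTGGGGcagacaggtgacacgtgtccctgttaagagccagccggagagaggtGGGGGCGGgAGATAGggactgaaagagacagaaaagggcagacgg
Csf2rb2, chr15:78305672-78305971 (minus strand): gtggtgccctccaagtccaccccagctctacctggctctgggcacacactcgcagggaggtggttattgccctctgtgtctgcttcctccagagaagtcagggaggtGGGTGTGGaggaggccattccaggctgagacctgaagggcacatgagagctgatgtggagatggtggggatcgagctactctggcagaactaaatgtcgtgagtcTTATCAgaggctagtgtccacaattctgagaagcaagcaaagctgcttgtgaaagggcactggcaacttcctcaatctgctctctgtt
Nrl, chr14:55524203-55524502 (minus strand): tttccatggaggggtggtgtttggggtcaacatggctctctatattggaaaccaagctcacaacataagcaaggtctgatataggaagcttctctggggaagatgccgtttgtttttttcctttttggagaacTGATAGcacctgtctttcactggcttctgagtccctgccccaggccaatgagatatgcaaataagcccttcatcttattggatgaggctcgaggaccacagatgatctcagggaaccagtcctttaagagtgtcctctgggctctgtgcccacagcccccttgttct
Ms4a2, chr19:11623670-11623969 (minus strand): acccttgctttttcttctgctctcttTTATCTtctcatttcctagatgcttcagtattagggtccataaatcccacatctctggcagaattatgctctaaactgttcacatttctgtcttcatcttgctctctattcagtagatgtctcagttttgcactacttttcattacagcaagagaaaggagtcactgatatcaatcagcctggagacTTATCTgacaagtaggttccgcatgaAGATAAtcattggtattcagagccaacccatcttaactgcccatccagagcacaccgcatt
Cpa3, chr3:20242132-20242431 (minus strand): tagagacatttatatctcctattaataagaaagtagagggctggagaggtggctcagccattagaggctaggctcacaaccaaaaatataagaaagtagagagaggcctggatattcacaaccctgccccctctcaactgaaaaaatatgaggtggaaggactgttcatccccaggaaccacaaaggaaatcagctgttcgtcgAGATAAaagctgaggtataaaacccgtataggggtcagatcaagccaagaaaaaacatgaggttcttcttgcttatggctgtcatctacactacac
The promoter of Alas2 held 1 GATA hexamer and 4 CACCC-type octamers, some of them overlapping. That of Slc38a5 held 1 and 10, that of Csf2rb2 1 and 1, and that of Nrl 1 and none. The promoters of the mast cell genes, which fell, held GATA hexamers too, 3 in Ms4a2 and 1 in Cpa3, and no octamer.

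The same letters were counted over all promoters of this length. Of 13825 tested genes 10508 matched the RefSeq table, with 13290 promoters. A GATA hexamer was present in 20.1% of them, in 20.5% of the 5352 promoters of genes that were not called and in 29.8% of all 32841 promoters in the table. For changes of at least 4 on the log2 scale the shares were 36.7% of 109 promoters for genes that rose and 29.0% of 334 for genes that fell. The octamer CCNCNCCC was in 65.8% of the promoters of tested genes, in 69.2% of those that rose by at least 2 and in 65.0% of those that fell by at least 2. At the cut of 4 the octamer shares were 63.3% for genes that rose and 58.1% for genes that fell, both below that of tested genes. The E-box CACGTG, the site of MYC and of the lysosomal regulators TFEB and TFE3, was in 9.48% of the promoters of tested genes. It was in 38.2% of the 34 matched promoters of lysosome and proton pump genes, in 23.5% of 17 for haem synthesis and in 18.8% of 64 for ribosome assembly, against 7.15% of all promoters in the table. These are counts of letters in a window and were not tested, and a match is not a bound site.

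Most tested genes of haemoglobin and haem rose. All 6 tested globin genes did, and their summed level went from 0.353 to 0.701 CPM in the 0 h libraries to 32.9 and 52.2 CPM in the 24 h libraries. Hbb-b1, the adult beta globin, went from 0.0252, 0 and 0.0894 CPM to 4.69 and 10.1 CPM. The entry Hbb-bs, which shares a start element with it, had almost the same values. The entries Hbb-b2 and Hbb-bt had identical values in every library. The 6 listed genes are thus not independent and may not be separate loci, and their sum appears to count the same reads more than once. How reads that match several places were treated is not given in the sources used here, so reads of near-identical copies may also be missing. The alpha globin genes Hba-a1 and Hba-a2 were listed at 0 in all 5 libraries. Of 20 genes for haem synthesis and its transporters 15 rose and 1 fell, with a median change of 1.42 (1.03 with total counts). The inner-membrane transporter Abcb10, which stabilises the mitochondrial iron importer, rose from 50.1, 63.7 and 52.9 CPM to 1346 and 1134 CPM. That importer, mitoferrin 1 (Slc25a37), rose from 52.4, 53.9 and 49.6 CPM to 496 and 558 CPM. Alas1, the form of the first enzyme used outside red cells, was not called (log2 change -0.19 ± 0.17, SE), nor was Nfs1.

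Among 30 genes of the red cell membrane and skeleton 19 rose and 4 fell. Dmtn, which encodes the actin-bundling protein dematin, went from 4.26, 3.14 and 4.24 CPM to 460.3 and 361 CPM. In the other direction, the adhesion receptor Cd44 fell from 354, 366 and 381 CPM to 38.1 and 21.7 CPM, the urea transporter Slc14a1 changed by -2.31 ± 0.46 (SE) and the potassium channel Kcnn4 by -1.08 ± 0.30 (SE), the last not called without 24 h replicate 2. The mechanosensitive channel Piezo1 was not called and spread widely at 24 h, at 271 and 122 CPM against 230.4, 303 and 307 CPM at 0 h. Iron genes went both ways, with 6 of 17 up (35.3%) and 3 down (17.6%), against 29.0% and 30.7% of all tested genes. The transferrin receptor Tfrc rose from 233, 315 and 299 CPM to 1161 and 1495 CPM, and Ncoa4, the receptor that delivers ferritin to lysosomes, rose by 2.55 ± 0.29 (SE). Tfr2, the second transferrin receptor, fell from 198, 178 and 275 CPM to 19.3 and 26.2 CPM, and Slc11a2, which carries iron out of endosomes, changed by -0.96 ± 0.17 (SE).

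A small number of genes went from almost no reads to clear transcription. By a rule of under 0.5 CPM in each 0 h library and over 10 CPM in each 24 h library, 8 genes were switched on, 6 of them with an established name. Slc52a3, a riboflavin transporter, went from 0.0630, 0.0517 and 0.0619 CPM to 155 and 79.4 CPM. Slc38a5 went from 0.239, 0.116 and 0.261 CPM to 72.7 and 65.2 CPM, and Ptk6, a non-receptor tyrosine kinase, from 0.0504, 0.0129 and 0.0550 CPM to 48.2 and 28.8 CPM. These values left no overlap, and the fitted change of Ptk6 was 878-fold, with 13 reads over the 0 h libraries. Creb3l3, a membrane-bound transcription factor known from liver, rose to 38.0 and 21.8 CPM, Olfm2, a secreted olfactomedin, to 32.9 and 11.9 CPM and Nrl to 10.4 and 10.1 CPM. Btnl10, a butyrophilin-like gene, and Dhrs3, a retinal reductase, stayed lower, at 2.65 and 7.66 CPM and 6.26 and 7.37 CPM at 24 h, and rose by 7.92 ± 0.69 and 6.63 ± 0.39 (SE).

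By the reverse rule 17 genes were switched off, 15 of them with an established name. Tespa1, a signalling protein of lymphocytes and mast cells, went from 112, 50.1 and 60.6 CPM to 0.442 and 0.223 CPM. Cpa3 went from 50.7, 33.2 and 76.6 CPM to 0.0536 and 0.0248 CPM with 17735 reads over the 0 h libraries and 6 over the 24 h libraries. Rgs18 and Rgs14, which end signals from G protein-coupled receptors, fell from 65.1, 49.9 and 39.6 CPM to 0.442 and 0.186 CPM and from 24.7, 16.0 and 18.1 CPM to 0.0670 and 0.0619 CPM. The protease Adamts5, the steroid enzyme Cyp11a1, the surface protein Cd109, the interleukin 18 receptor chain Il18r1 and the nucleoside transporter Slc29a2 were among the others. Some genes had reads in every 0 h library and none at 24 h. Fzd9, a Wnt receptor, was at 3.50, 4.08 and 3.45 CPM at 0 h and had 0 reads at 24 h, which is at least 188-fold lower when 3 reads are allowed over the group. Ms4a2 was at least 186-fold lower, Clec4e, a lectin of macrophages, at least 126-fold lower, and Cd276, an immune checkpoint ligand, at least 61.5-fold lower by the same measure.

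**Figure D2:**
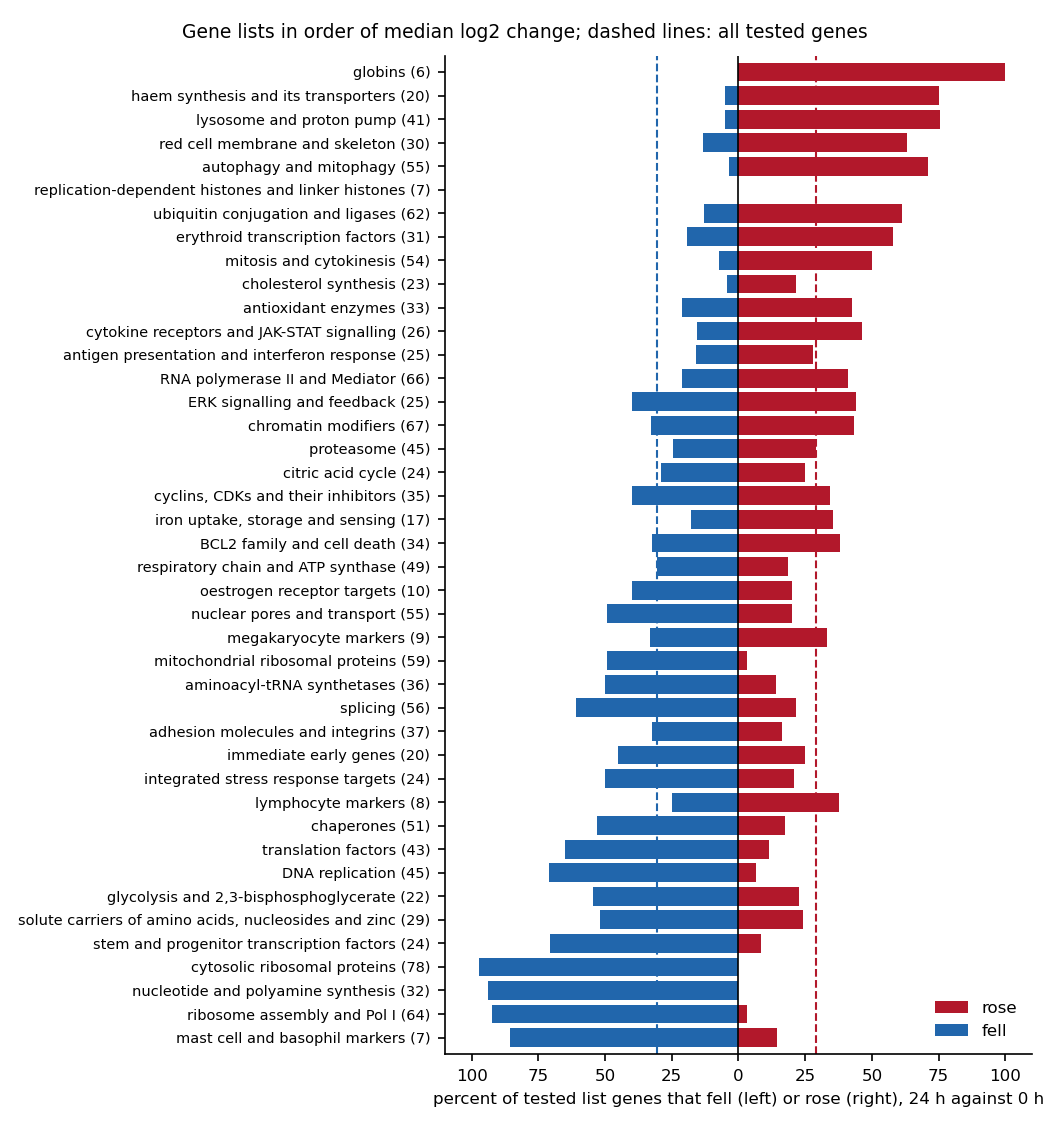
Share of tested genes that rose (red, to the right) or fell (blue, to the left) in 42 gene lists with at least 6 tested genes, in percent, ordered by median log2 change, with the number tested in brackets. Dashed lines mark the shares of all tested genes, 29.0% rose and 30.7% fell, and the cytosolic ribosomal proteins (97.4% fell) and lysosome genes (75.6% rose) lie far from them on opposite sides.

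Genes of protein and organelle degradation rose in most lists. Of 41 tested genes of the lysosome and its proton pump 31 rose and 2 fell, with a median change of 1.30 (0.91 with total counts). All 16 tested subunits of the vacuolar proton pump, which acidifies the lysosome, had risen. Among them Atp6v0a1, the membrane subunit, went from 266, 226 and 238 CPM to 1667 and 1968 CPM. The protease cathepsin B (Ctsb) went from 38.2, 46.3 and 43.7 CPM to 344 and 415 CPM, and Npc2, which hands cholesterol out of the lysosome, from 74.1, 83.1 and 75.1 CPM to 588 and 541 CPM. The genes that fell were Ctse, an aspartic protease outside the lysosome proper, from 216, 161 and 157 CPM to 23.7 and 33.8 CPM, and Gusb, beta-glucuronidase, from 64.6, 85.5 and 87.5 CPM to 15.7 and 10.4 CPM.

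Autophagy genes also rose, with 39 of 55 up and 2 down (median 0.87). Rragd, a Rag GTPase that places nutrient signalling on the lysosome, went from 8.35, 8.90 and 16.0 CPM to 303 and 577 CPM, and the other tested Rag genes, Rraga and Rragc, also rose, the latter call being lost under 4 of 13 alternatives. Calcoco1, an autophagy receptor, rose from 9.94, 5.31 and 4.76 CPM to 88.0 and 98.6 CPM. Map1lc3a and Map1lc3b, which encode the LC3 proteins of the autophagosome, rose by 3.39 ± 0.37 and 1.79 ± 0.19 (SE), and of 5 tested LC3 and GABARAP genes 4 rose. The mitophagy receptors Bnip3l and Bnip3 rose by 1.20 ± 0.18 and 2.48 ± 0.28 (SE). The transcription factors that drive lysosome genes split. Tfe3 rose from 14.9, 19.3 and 22.6 CPM to 156 and 176 CPM, whereas Tfeb fell from 55.6 ± 8.33 CPM (SD, n = 3) to 18.1 ± 0.126 CPM (SD, n = 2). Mitf, another member of that family, was at 0.0378, 0.116 and 0.247 CPM and 0.0134 and 0.0124 CPM, and its call was lost without either 24 h library (-3.35 and -3.24). The kinase Mtor and its partner Rptor were not called, with changes of 0.04 ± 0.14 and -0.08 ± 0.11 (SE).

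Ubiquitin enzymes rose in 38 of 62 cases and fell in 8, with a median of 0.65 (0.26 with total counts). Ube2l6, a conjugating enzyme that also serves ISG15, went from 4.01, 3.40 and 2.62 CPM to 74.4 and 84.3 CPM. Ube2j1, which works in protein quality control at the endoplasmic reticulum, went from 56.5, 41.7 and 41.5 CPM to 343 and 507 CPM, and March8, a membrane ligase that removes surface receptors, from 69.6, 85.5 and 83.9 CPM to 571 and 558 CPM. Trim58, a ligase of late red cell maturation, fell at a low level, from 0.970, 0.568 and 0.282 CPM to 0.0670 and 0.0372 CPM. The proteasome as a whole stayed near the bulk, with 13 of 45 up (28.9%) and 11 down (24.4%), against 29.0% and 30.7% of all tested genes. Its median of 0.00 became -0.39 with total counts. Its activator Psme4 stood out of that list, rising from 213, 191 and 201 CPM to 920.3 and 1249 CPM, and the immune subunits Psmb8 and Psmb10 changed by -3.03 ± 0.55 and -1.25 ± 0.38 (SE), the second not called without 24 h replicate 2 (-0.99). Without that library 7 rather than 11 proteasome genes fell.

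**Figure D3:**
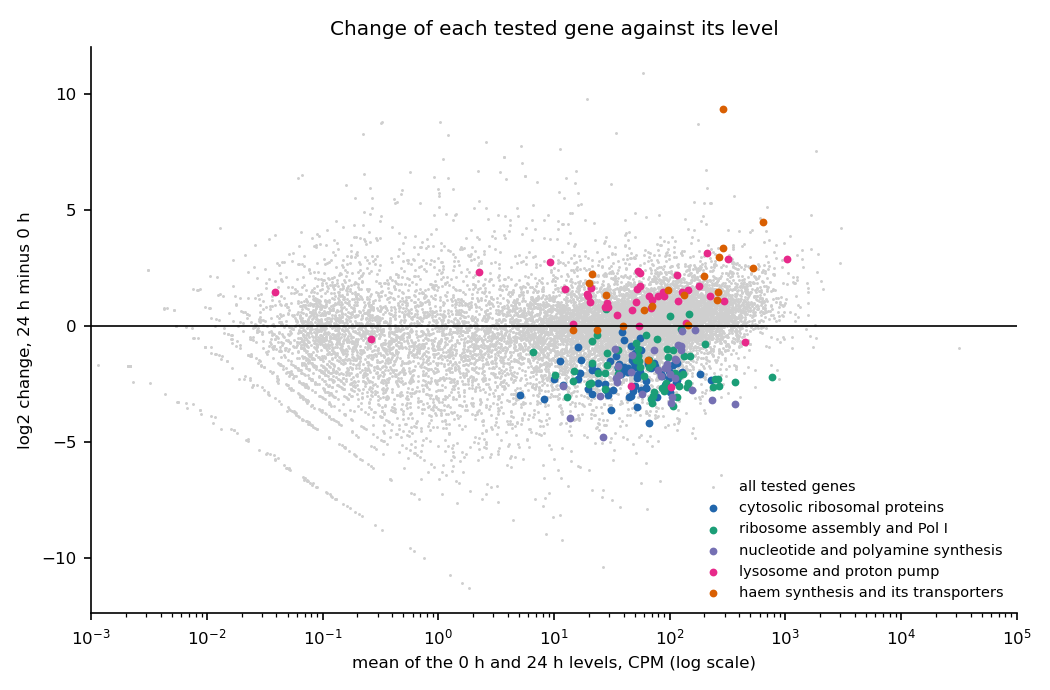
Log2 change of each tested gene against the mean of its 0 h and 24 h levels in CPM on a log scale, with 5 gene lists in colour over all tested genes in grey. Cytosolic ribosomal proteins, ribosome assembly genes and nucleotide synthesis genes lie below 0 with few exceptions (medians -1.99, -2.02 and -2.01), and lysosome and haem genes mostly above it (medians 1.30 and 1.42).

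Genes for ribosome production fell in most cases. Of 78 tested genes for cytosolic ribosomal proteins 76 fell and none rose, with a median of -1.99 and a range from -4.17 to -0.27. The fall was uneven across subunits. Rpl12 went from 97.7, 128 and 151 CPM to 9.71 and 4.29 CPM (edgeR adjusted p = 4.19e-05) and Rps12 from 118, 72.8 and 98.4 CPM to 10.3 and 6.74 CPM, while Rpl28 was read at 33.4, 49.3 and 44.3 CPM and 36.4 and 34.0 CPM and was not called, like Rpl23a. Of 64 genes for ribosome assembly and RNA polymerase I 59 fell and 2 rose. Rrp1b and Tsr1, nucleolar assembly factors, changed by -3.47 ± 0.26 and -3.33 ± 0.17 (SE), the first from 198, 180.5 and 212 CPM to 21.6 and 13.8 CPM. The genes that rose were Rrn3 and Taf1c, both initiation factors of polymerase I, by 0.50 ± 0.19 and 0.72 ± 0.21 (SE), and both calls were lost without 24 h replicate 2 and with total counts. That of Rrn3 was also lost without 24 h replicate 1 (0.51) and without 0 h replicate 1 (0.34). Mitochondrial ribosomal proteins fell in 29 of 59 cases, with a median of -0.44. The 2 that rose were lost without either 24 h library, and 1 of them without 0 h replicate 2. Several of these genes carry small nucleolar RNAs inside their introns, whose reads the gene-body counts may include.

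Of 43 translation factors 28 fell and 5 rose. Eef1g, an elongation factor subunit, went from 194, 284 and 310.3 CPM to 50.1 and 37.0 CPM, and Eif5a, the hypusinated factor, changed by -2.29 ± 0.25 (SE). Rising against that were Eif2ak1, which encodes the haem-regulated inhibitor kinase of red cells, from 57.6, 64.3 and 58.4 CPM to 560.2 and 722 CPM, and Eif5b, which joins the ribosomal subunits, from 328, 382 and 373 CPM to 1557 and 1947 CPM. Both lay apart from their 0 h libraries, with edgeR adjusted p-values of 5.73e-07 and 1.73e-06. Aminoacyl-tRNA synthetases fell in 18 of 36 cases and rose in 5. The mitochondrial forms went both ways, with Yars2 (-2.21 ± 0.18, SE) and Ears2 (-2.10 ± 0.20, SE) among those that fell and Fars2 (0.85 ± 0.13, SE) and Wars2 (0.74 ± 0.14, SE) among those that rose. Lars2, the mitochondrial leucine form, was not called, with values of 829, 728 and 4068 CPM in the 0 h libraries and 1325 and 1420.1 CPM in the 24 h libraries, and 0 h replicate 3 stood apart. That library also had the most Rn45s, and the part of this in the Lars2 value was not tested.

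Genes that make the building blocks of nucleic acids fell almost throughout. Of 32 genes for nucleotide and polyamine synthesis 30 fell and none rose, with a median of -2.01. Mthfd1l, a mitochondrial enzyme of folate metabolism, went from 765, 611 and 637 CPM to 53.6 and 76.1 CPM. Nme2, a nucleoside diphosphate kinase, went from 38.3, 59.2 and 56.3 CPM to 2.22 and 1.46 CPM, and Srm, spermidine synthase, from 27.5, 22.9 and 28.0 CPM to 2.63 and 0.718 CPM. Only Rrm1, the large subunit of ribonucleotide reductase (-0.18 ± 0.11, SE), and Paics, a purine enzyme (-0.21 ± 0.20, SE), were not called in that list. Solute carriers were mixed, with 15 of 29 down and 7 up. The folate carrier Slc19a1 fell from 140.0, 154 and 166 CPM to 6.70 and 3.20 CPM and Slc29a2 from 18.6, 16.1 and 19.8 CPM to 0.201 and 0.0496 CPM. Slc38a5, the zinc and manganese carrier Slc39a8 (2.44 ± 0.21, SE) and the amino acid carrier Slc43a2 (2.58 ± 0.25, SE) rose.

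Targets of the integrated stress response fell in 12 of 24 cases and rose in 5. Slc7a11, the cystine importer, went from 18.5, 18.2 and 21.7 CPM to 0.509 and 0.223 CPM and Trib3, a pseudokinase, from 39.3, 22.1 and 23.1 CPM to 5.27 and 5.18 CPM. The phosphatase subunits that end the response rose, Ppp1r15a from 22.1, 21.2 and 18.1 CPM to 108 and 120.2 CPM and Ppp1r15b from 114, 103 and 101 CPM to 424 and 413 CPM. Slc7a5, a large neutral amino acid carrier, was not called, at 179.6, 175 and 184 CPM and 206 and 102 CPM.

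Genes of energy metabolism changed in both directions. Of 22 genes of glycolysis and its branches 12 fell and 5 rose, with a median of -1.08. Lactate dehydrogenase A (Ldha) went from 140.2 ± 17.8 CPM (SD, n = 3) to 9.09 ± 6.92 CPM (SD, n = 2) and phosphoglycerate kinase (Pgk1) from 70.7 ± 15.4 CPM (SD, n = 3) to 7.08 ± 4.36 CPM (SD, n = 2). Both lay below every 0 h library (edgeR adjusted p = 0.000454 and 0.00103), with a wide spread between the 24 h libraries. Hexokinase 2 (Hk2) changed by -1.44 ± 0.28 (SE). Hexokinase 1 (Hk1), the red cell form of the first step, rose from 119.6, 177 and 174 CPM to 1553 and 1304 CPM, and the muscle-type phosphofructokinase Pfkm by 1.39 ± 0.12 (SE). Bpgm, which makes the 2,3-bisphosphoglycerate that lowers oxygen affinity, rose by 0.48 ± 0.17 (SE), a call lost under 6 of 13 alternatives, total counts among them. Without 0 h replicate 2, without 24 h replicate 2 and with total counts, 3 rather than 5 genes of this list rose. In the citric acid cycle 6 of 24 genes rose and 7 fell (29.2%), near the 29.0% and 30.7% of all tested genes, and with total counts 4 rose and 13 fell. Changed genes were Idh3a at -2.25 ± 0.15 (SE) and Idh1 at 1.35 ± 0.17 (SE), 2 isocitrate dehydrogenase genes. Of 49 genes of the respiratory chain and ATP synthase 9 rose (18.4%) and 15 fell (30.6%, near the share of all tested genes), and 25 were not called.

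Signalling genes changed in opposite directions within a pathway. Of 26 tested cytokine receptors and JAK-STAT genes 12 rose and 4 fell, and the median of 0.28 became -0.11 with total counts. Kit, the receptor for kit ligand, fell from 474, 604 and 609 CPM to 105 and 46.9 CPM, and Il4ra, the interleukin 4 receptor, from 53.2, 59.9 and 55.6 CPM to 10.1 and 11.3 CPM. Cish, a feedback inhibitor of STAT5 signalling, rose from 33.8, 35.4 and 36.8 CPM to 161 and 179 CPM. The kinase Pim1, another STAT5 target, rose by 2.16 ± 0.17 (SE), Jak1 by 1.38 ± 0.12 (SE) and Jak2 by 0.84 ± 0.18 (SE), the last a call lost with total counts. The erythropoietin receptor Epor was not called (0.19 ± 0.23, SE).

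In the ERK pathway 11 of 25 tested genes rose and 10 fell, with a median of 0.08 that became -0.31 with total counts. The kinases of the cascade were higher, Braf from 169, 148 and 161 CPM to 451 and 494 CPM and Map2k1 by 1.19 ± 0.15 (SE). Spry4, a feedback inhibitor that ERK activity induces, was lower, from 29.9, 28.2 and 25.4 CPM to 0.522 and 0.446 CPM. Without 24 h replicate 1, and likewise without 24 h replicate 2, 6 rather than 10 genes of this list fell, and without 24 h replicate 2, 7 rather than 11 rose. Immediate early genes fell in 9 of 20 cases and rose in 5. Fosl1, a partner of JUN, went from 37.0, 32.0 and 29.6 CPM to 0.576 and 0.396 CPM and Ier2 from 24.9, 31.6 and 28.4 CPM to 1.74 and 1.67 CPM. Btg2, an antiproliferative gene, rose from 9.10, 7.63 and 3.46 CPM to 367 and 466 CPM, Jun from 0.605, 0.452 and 0.454 CPM to 2.04 and 5.75 CPM and Klf6 by 1.89 ± 0.26 (SE). Without 24 h replicate 1, 3 rather than 5 of the early genes rose.

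Genes of DNA replication and of mitosis are given in turn. Of 45 genes of DNA replication 32 fell and 3 rose, with a median of -0.81. All 6 subunits of the MCM helicase, MCM2 to MCM7, fell. Cdt1, which loads that helicase, went from 57.6, 43.8 and 56.3 CPM to 10.4 and 4.78 CPM, and Uhrf1, which maintains DNA methylation at forks, from 191, 161 and 174 CPM to 37.1 and 22.2 CPM. Orc2 and Cdc6, which also act at origins, rose by 1.04 ± 0.11 and 1.06 ± 0.15 (SE). Of 54 genes of mitosis and cytokinesis 27 rose and 4 fell, with a median of 0.57. With total counts 18 rose and 13 fell, and the median was 0.18. Cdc25b, a phosphatase that starts mitosis, rose from 9.39, 13.3 and 10.4 CPM to 95.4 and 79.9 CPM, Nusap1, a spindle protein, from 51.1, 69.7 and 49.7 CPM to 247 and 332 CPM and Tpx2, a spindle assembly factor, from 146, 209 and 179 CPM to 543 and 747 CPM. Cdk1 and Cdc25a fell, the latter from 178, 186 and 202 CPM to 68.3 and 52.9 CPM, and without 24 h replicate 2 the genes that fell numbered 2.

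Cyclins, their kinases and inhibitors gave 12 up and 14 down among 35. Next to Cdk6, cyclin D2 (Ccnd2) fell from 536, 476 and 487 CPM to 155 and 70.7 CPM. The inhibitor p27 (Cdkn1b) rose by 2.55 ± 0.23 (SE) and Ccng2, a cyclin of resting cells, from 14.1, 9.17 and 4.81 CPM to 75.3 and 91.6 CPM. Rbl1 and E2f2 were not called, with changes of 0.03 ± 0.13 and 0.28 ± 0.24 (SE). Of 30 listed histone genes 7 had enough reads to be tested and 0 were called by edgeR, with 0 at an unadjusted p under 0.05 and 0 called by DESeq2. Without 0 h replicate 3, 4 rose. Hist1h1b, a linker histone gene, was at 34.1, 33.6 and 88.1 CPM at 0 h, highest in that library, and at 71.6 and 96.6 CPM at 24 h.

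Genes of the nucleus were split. Among 67 chromatin modifiers 29 rose (43.3%) and 22 fell (32.8%), against 29.0% and 30.7% of all tested genes. Their median of 0.03 became -0.35 with total counts. The architectural protein gene Hmga1 went from 116, 131 and 112 CPM to 11.6 and 6.24 CPM and the deacetylase Hdac7 from 179, 207 and 275 CPM to 17.7 and 18.5 CPM. Ezh1, a methyltransferase of Polycomb complexes in resting cells, rose from 36.3, 37.5 and 38.9 CPM to 177 and 149 CPM, and the demethylase Kdm7a by 2.56 ± 0.18 (SE). Among 66 genes for RNA polymerase II, its factors and Mediator 27 rose (40.9%) and 14 fell (21.2%). Their median of 0.18 became -0.21 with total counts. Med13, of the Mediator kinase module, went from 279, 300.4 and 289 CPM to 1252 and 1379.6 CPM and Aff1, a scaffold of elongation complexes, from 188, 177 and 145 CPM to 819 and 858 CPM. Without 24 h replicate 2, 9 rather than 14 of these genes fell. Splicing genes mostly fell, 34 of 56 with 12 up, for example Srsf7 from 177, 285 and 159 CPM to 42.1 and 31.0 CPM.

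Among 55 genes of nuclear pores and transport 27 fell and 11 rose. Ipo5, an importin that carries ribosomal proteins into the nucleus, went from 352, 343 and 382 CPM to 55.2 and 41.9 CPM, and of 20 tested nucleoporin genes 11 fell and 1 rose. The 3 largest gains in this list were in genes of the lamina and of its link to the cytoskeleton. Lmna, lamin A and C, went from 67.1, 64.9 and 68.7 CPM to 451 and 385 CPM, Sun2 from 30.5, 25.6 and 19.1 CPM to 215 and 234 CPM and Sun1 rose by 1.22 ± 0.21 (SE). Lmnb1, lamin B1, changed by -1.39 ± 0.20 (SE). The largest loss in the list was that of Syne2, another gene of the link to the cytoskeleton. It was read at a low level and changed by -3.42 ± 0.65 (SE). Xpo7, an exportin of maturing red cells, rose by 0.75 ± 0.11 (SE).

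Chaperones fell in 27 of 51 cases and rose in 9. Hsp90ab1, the constitutive HSP90 of the cytosol, went from 190.3, 184 and 204 CPM to 25.8 and 18.7 CPM, and the mitochondrial Hspd1 from 218, 324 and 319.9 CPM to 42.3 and 41.7 CPM. Dnajb2 rose from 13.1, 19.3 and 18.6 CPM to 91.1 and 150.2 CPM. Antioxidant enzymes gave 14 up (42.4%) and 7 down (21.2%) among 33, with a median of 0.32 that became -0.07 with total counts. Catalase (Cat) rose from 61.8, 66.6 and 57.3 CPM to 404 and 463 CPM and Prdx2, the abundant red cell peroxiredoxin, from 40.8, 39.4 and 49.0 CPM to 269 and 237 CPM, whereas the mitochondrial superoxide dismutase Sod2 fell from 60.1, 63.4 and 60.4 CPM to 24.0 and 17.2 CPM, and without 24 h replicate 2, 4 rather than 7 of these genes fell. In the BCL2 and cell death list 13 of 34 rose (38.2%) and 11 fell (32.4%), against 29.0% and 30.7% of all tested genes. Bcl2 itself, an inhibitor of apoptosis, fell from 44.7, 35.7 and 30.7 CPM to 4.77 and 2.33 CPM and Bid, a promoter of it, from 213, 178 and 209.7 CPM to 33.0 and 21.7 CPM, and Mcl1 was not called (-0.36 ± 0.19, SE).

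In cholesterol synthesis 5 of 23 genes rose (21.7%) and 1 fell (4.35%), against 29.0% and 30.7% of all tested genes. The median of 0.43 was near 0 with total counts (0.05). Srebf2, the transcription factor of that pathway, rose from 323, 365 and 352 CPM to 1096 and 1016 CPM. Without 24 h replicate 2, 3 rather than 5 cholesterol genes rose, and without 24 h replicate 1 none fell. Adhesion genes fell in 12 of 37 cases (32.4%), near the share of all tested genes, and rose in 6 (16.2%). The integrin chain Itgal went from 79.2, 53.6 and 58.6 CPM to 0.589 and 0.124 CPM, while Itgb1 was not called (0.01 ± 0.12, SE). Genes of antigen presentation and interferon response gave 7 up (4 without 24 h replicate 2) and 4 down among 25, and their median of 0.23 became -0.16 with total counts. The share that rose was 28.0%, near that of all tested genes, and the share that fell was 16.0%. The antigen and interferon list had Irf7 up from 0.365, 0.400 and 0.337 CPM to 3.86 and 7.04 CPM and B2m up by 1.35 ± 0.19 (SE). The list of textbook oestrogen receptor targets had 2 up and 4 down among 10, and the genes that rose were Xbp1 and Ctsd. Neither was called without 24 h replicate 1 (0.64 and 0.92), and Xbp1 was not called without 0 h replicate 2 or 3 or without 24 h replicate 2 (0.56, 0.57 and 0.77).

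Among 31 erythroid transcription factors and cofactors 18 rose and 6 fell. Zfpm1, the GATA1 partner FOG1, went from 228, 315 and 354 CPM to 3275 and 2749 CPM, Bach1, a haem-sensitive repressor, from 61.3, 62.4 and 44.4 CPM to 971 and 994 CPM and Klf13 rose by 2.72 ± 0.21 (SE). Klf1, the factor of adult globin genes, rose from 27.8, 35.5 and 36.9 CPM to 69.3 and 62.2 CPM. Gata1 was read at 257, 188 and 198 CPM and 301 and 301 CPM, and its call was lost without 0 h replicate 2 or 3, without either 24 h library and with total counts. Whether the Gata1 reads come from the cells' own locus or from the GATA1-ER fusion cannot be told from the counts. Tal1 was not called (0.03 ± 0.15, SE), and Sox6 fell from 84.8, 80.7 and 67.2 CPM to 10.2 and 8.65 CPM. Without 24 h replicate 2, 3 rather than 6 genes of the list fell.

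Of 24 tested factors of stem and progenitor cells 17 fell and 2 rose. Lyl1, a relative of TAL1, went from 93.4, 103 and 104 CPM to 2.32 and 2.22 CPM, Etv4, an ETS factor, from 9.73, 3.56 and 6.30 CPM to 0.0134 and 0.0496 CPM and Erg from 59.3, 26.3 and 41.2 CPM to 2.32 and 3.51 CPM. Gata2 fell from 131, 147 and 185 CPM to 35.4 and 12.2 CPM, Myc from 97.3, 118 and 114 CPM to 33.2 and 14.8 CPM and Myb from 165, 409 and 383 CPM to 13.9 and 8.67 CPM. Elf1 rose from 235, 218 and 220.0 CPM to 856 and 685 CPM. Fli1 was called as higher with 24 h libraries that disagreed, at 528 and 172 CPM against 213, 163 and 128 CPM at 0 h, and its log2 change was 0.03 without 24 h replicate 1. Its call was also lost without 0 h replicate 2 (1.04), without 0 h replicate 3 (0.90) and with total counts. The list then had 1 gene up instead of 2 without each of these 3 libraries. Runx1, with many reads, was not called (0.48 ± 0.20, SE).

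Markers of other blood lineages were read at low levels with a few exceptions. Of 12 mast cell and basophil markers 7 were tested, 6 fell and 1, Srgn, rose. The proteoglycan gene Srgn, which many blood cells express, went from 18.5, 15.4 and 18.5 CPM to 112 and 32.8 CPM. The summed level of the list ran from 112 to 158 CPM at 0 h. At 24 h it was 113 and 33.8 CPM, of which Srgn alone made 112 and 32.8 CPM. Cpa3 and Ms4a2 were read in every 0 h library and held 6 and 0 reads over the 24 h libraries. Mcpt8 and Mrgprb2 were at 0 in all 5 libraries. Il1rl1, the interleukin 33 receptor, went from 44.3, 59.4 and 54.5 CPM to 0.549 and 0.235 CPM. Of 12 megakaryocyte markers 9 were tested, 3 rose and 3 fell, 33.3% each, against 29.0% and 30.7% of all tested genes. Their summed level ran from 182 to 205 CPM at 0 h and from 121 to 197 CPM at 24 h. Tubb1, the platelet beta tubulin, rose from 1.15, 0.697 and 0.935 CPM to 34.3 and 19.4 CPM, Itgb3 by 2.12 ± 0.33 (SE) and Gp5 changed by -1.72 ± 0.19 (SE), and Ppbp was at 0. Granulocyte and monocyte markers summed to between 0.495 and 1.51 CPM at 0 h and between 0.248 and 0.255 CPM at 24 h, with S100a8, S100a9 and Cebpa at 0. Lymphocyte markers summed to between 7.46 and 11.5 CPM at 0 h and between 3.78 and 7.49 CPM at 24 h, with Cd79b at 0. Whether a mixture of cells contributes to any list above was not tested.

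Genes were also grouped by the stem of their symbol, against 29.0% up and 30.7% down for all tested genes. Genes named Zfp, which encode zinc finger proteins, rose in 100 of 307 cases and fell in 54, and phosphatase genes named Ppp rose in 32 of 63 and fell in 10. Rab GTPase genes rose in 27 of 59 cases and fell in 13, and deubiquitinases named Usp in 23 of 46 and 12. Genes named Cd fell in 19 of 45 cases and rose in 5, and those named Il fell in 15 of 44 and rose in 5. By chromosome the share of genes that rose lay between 24.7% on chromosome 10 and 35.4% on chromosome 18.

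Of 35158 tested elements 7984 rose (22.7%) and 10386 fell (29.5%), which is 52.2% called, and the libraries did not overlap for 68.9%. Among changes of 2 or more on the log2 scale 2404 elements rose (6.84%) and 6605 fell (18.8%), and among changes of 4 or more 522 rose (1.48%) and 2732 fell (7.77%). The split differed by location. Of 12973 elements at gene starts 30.0% rose and 20.8% fell, with a median of 0.14. Of 10044 intergenic elements 13.6% rose and 40.3% fell, with a median of -1.06. Elements inside genes lay between. The class listed as sense had 25.2% up and 28.9% down, and the antisense class 17.3% up and 32.2% down. Whole peaks, which take both strands, differed from entries on a single strand. In the sense class 17.5% of 2199 whole peaks rose and 52.6% fell, against 28.2% and 19.8% of 5744 single-strand entries. Of 4024 intergenic whole peaks 12.1% rose and 54.1% fell, against 14.6% and 31.0% of 6020 on a single strand. At starts the shares were 39.2% and 23.6% of 4659 whole peaks and 24.8% and 19.2% of 8314. Without 24 h replicate 2 the calls no longer showed more falls than rises over all elements or over the sense class. Intergenic and antisense elements still fell more often than they rose. The median change over all elements was then -0.05, against -0.18 with that library. By location it was 0.32 at starts, -0.04 for sense, -0.53 for antisense and -0.98 for intergenic elements.

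**Figure D4:**
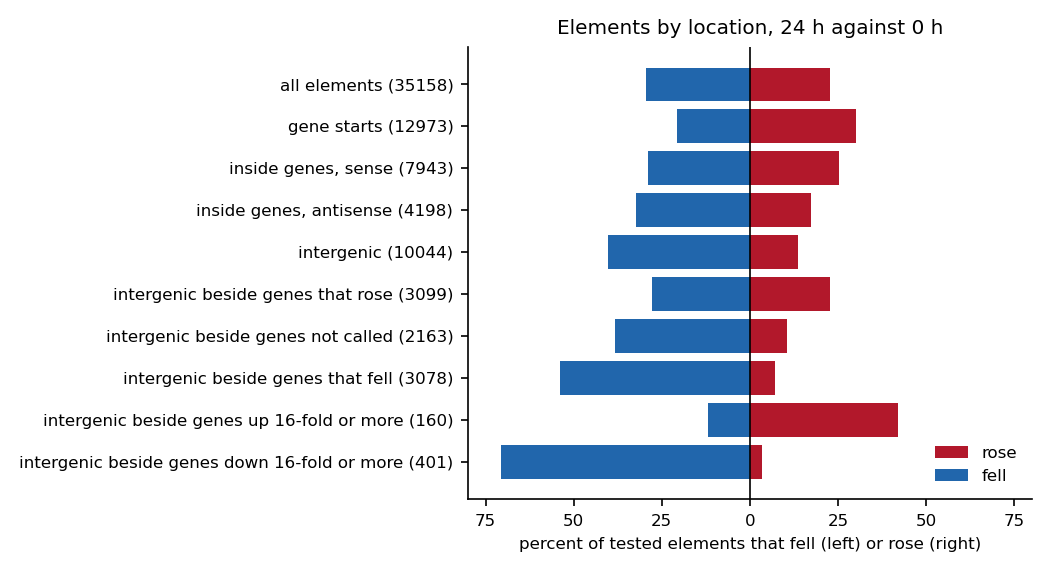
Share of tested elements that rose (red, to the right) or fell (blue, to the left) by location, and for intergenic elements by the calls of their listed neighbouring genes, in percent with the number tested in brackets. Intergenic elements beside genes up 16-fold or more rose in 41.9% of cases, those beside genes down 16-fold or more in 3.49%.

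Intergenic elements were then grouped by the calls of the genes listed beside them. Beside genes that rose, with no neighbour that fell, 22.6% of 3099 elements rose and 27.7% fell. Beside genes that fell, with no neighbour that rose, 7.08% of 3078 rose and 53.9% fell. Beside neighbours that were not called the shares were 10.4% and 38.2% of 2163. Of the 160 intergenic elements beside genes up by 4 or more on the log2 scale 41.9% rose, and of the 401 beside genes down by that much 70.6% fell. Several leading genes had many elements of their own. Of 27 tested elements that list Zfpm1 21 rose and 1 fell, of 15 that list Tmem131 14 rose, and of 22 that list Cdk6 17 fell and none rose. Elements of other genes that rose went both ways, with 4 up and 4 down of 8 that list Atp8a1 and 2 up and 4 down of 11 that list Adk.

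Of the 5 intergenic elements with the largest gain in mean CPM, 4 are given with their positions in mm9, the build of the deposited peak table. An element on the minus strand at chr11:86394200-86396401, between Mir21a and Rps6kb1, went from a mean of 465 to 1909.8 CPM. One at chr15:78181950-78183201, beside Mir7676-1, Mir7676-2 and Tex33, went from 69.0 to 1305 CPM, with a log2 change of 4.24 ± 0.28 (SE). One at chr5:38895600-38904201, between the urate transporter gene Slc2a9 and the actin regulator Wdr1, went from 18.2 to 733 CPM. Another at chr5:136102150-136107001, listed beside Rhbdd2, went from 2.46 to 520.4 CPM, with a log2 change of 7.72 ± 0.21 (SE). By log2 change the largest gains also included chr6:136894750-136895351 beside Arhgdib, from 0.189 to 77.3 CPM. Inside genes, chr15:78129050-78130451 in Csf2rb2 went from 7.54 to 1899 CPM and chr14:78263750-78268451 in Dnajc15 from 14.5 to 675 CPM.

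At gene starts, the element at chr8:126500650-126508701 at Abcb10 went from 67.1 to 1721 CPM and that at chr7:110972500-110977051 over Hbb-b1 and Hbb-bs from 21.2 to 1896 CPM, which is much more than the reads over the globin gene bodies. Among losses at starts were elements over genes that host small nucleolar RNAs. The element at chr2:130098250-130106201 over Nop56 and Idh3b went from 1901 to 467 CPM, and that at chr17:24854900-24862001 over Rps2 from 1374 to 403 CPM. Inside genes, chr8:87230050-87232451 in Nfix, listed beside Lyl1, fell from 529 to 35.5 CPM, and chr6:88151350-88157701 over Gata2 from 534 to 58.6 CPM. Several elements lost all reads. One between Akap7 and Arg1 at chr10:24847550-24849251 held 876 reads over the 0 h libraries and 0 at 24 h, at least 166-fold lower, and one inside Nhsl2 at chrX:99231050-99233251 held 669 and 0, at least 127-fold lower.

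Start elements and gene bodies were compared for 6610 pairs of 6491 genes in which a start element lists a single gene. Both rose in 1697 pairs and both fell in 1200. In 1404 pairs the body alone was called, in 684 the start alone and in 1544 neither. The log2 changes had a Pearson correlation of 0.86 across pairs, given as a description because genes are not independent replicates and each pair shares its libraries and may share reads. The tables were scaled separately, and the median of the body change minus the start change was -0.17.

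**Figure D5:**
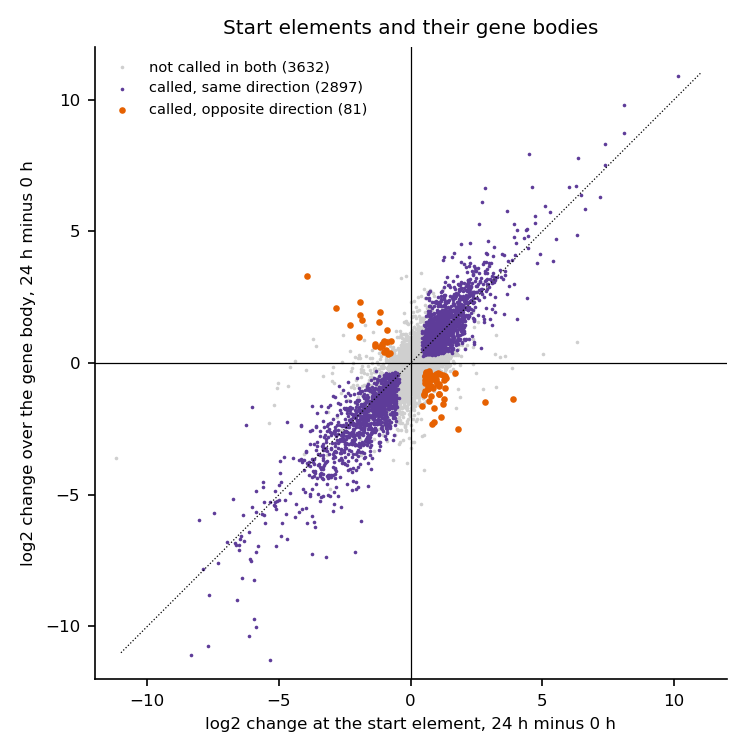
Log2 change over the gene body against log2 change at the start element for 6610 pairs, with pairs called in the same direction in purple (2897), in opposite directions in orange (81) and others in grey. The points run along the dotted line of equal change, and most of the opposite calls sit near the centre.

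In 81 pairs the calls went in opposite directions, 59 with a lower body and a higher start and 22 the other way. With total counts the opposite pairs numbered 121, and with a minimum of 1 on the log2 scale 16. The genes named here were picked after their values were seen. Rabif, a chaperone of Rab GTPases, had a start that went from 129 to 271 CPM and a body that changed by -1.19 ± 0.19 (SE). Nbeal2, a granule protein gene of megakaryocytes, had a start that went from 54.0 to 120.2 CPM and a body that changed by -2.06 ± 0.28 (SE). The nucleoside transporter Slc29a1 had a body that changed by -1.49 ± 0.18 (SE) and more than 1 start element, one that rose from 1.66 to 11.7 CPM and one that fell from 58.0 to 20.5 CPM. In the other direction, Kpna1, an importin, had a start that went from 465 to 229 CPM and a body that changed by 0.82 ± 0.14 (SE), and Snx14, a sorting nexin, had a start that went from 272 to 120.1 CPM and a body that changed by 0.60 ± 0.14 (SE), whose call was lost with total counts and without 24 h replicate 2.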

How the data were processed

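Nascent transcription was measured by PRO-seq in 9 libraries. Reads were aligned with BWA to the mouse build mm9, per the submitters' processing notes, and the sources used here give no versions, counting rules or use of strand. The deposited tables hold raw read counts per gene body and per dREG element for each library, so reads near gene starts may be included and overlapping or antisense genes may share reads. Members, gene lists and the choice of results were made with earlier results of these data known.

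All 9 libraries entered 1 model per table, with one coefficient per group (residual df 5), in edgeR 4.0.16 (R 4.3.3), using filterByExpr, TMM scaling and the quasi-likelihood test. P-values were adjusted by Benjamini-Hochberg over each whole table at 0.05, and the tables were scaled separately. Tested on simulated data, the gene-body step recovered 59% of 2-fold and 96% of 4-fold changes over 13465 genes with 7 false calls. The element step recovered 21% and 80% over 33759 elements with 16 false calls. In each simulation 100 features of each size were changed, as many up as down, and all others were kept equal. In the data 59.7% of genes were called, so the simulation cannot show how many calls are false under so wide a change. Alternatives were RLE and total-count scaling, DESeq2 1.42.0, no filter, the 5 libraries alone, blocks, each library left out, a 2-fold minimum and, for elements, gene-body scaling, whole peaks and a stricter filter.

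Genes named in the text came mainly from a rule over called genes whose counts averaged 50 or more and whose groups did not overlap. It took the 10 largest gains and losses in CPM, ranks 1 to 20 by log2 change, genes switched on or off, and up to 3 called genes per direction and 2 uncalled genes from each of 44 lists. Other named members of these lists, and the pairs with opposite calls, were picked after their values were seen. Of 1658 list genes 1514 were tested, and 3 list entries matched no row. No 2 libraries held identical counts. Some genes and 1 list are not reported here.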

Additional observations from a re-analysis of the deposited data

How the results depend on the processing

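Of 362 genes of the naming rule, 278 were called, 24 of these lost the call under at least 1 alternative and 0 changed direction. Of 22 genes with values in the text outside that rule, 19 were called, 4 lost the call (Bpgm, Jak2, Rragc and Snx14) and 0 changed direction. The genes that rose numbered 2614 with total counts and 2316 with a minimum change of 1 on the log2 scale. Elements that rose and fell numbered 3468 and 4152 when only whole peaks were kept. Pairs called in the same direction at start and body numbered 1645 with a minimum of 1. Leaving out each library in turn gave 3369 to 3804 genes that rose and 3304 to 4004 that fell, and 6588 to 7670 elements that rose and 6652 to 9949 that fell. Of these lowest values, 6588 came without 24 h replicate 1 and the other 3 without 24 h replicate 2. A 24 h group of 1 library is assumed to vary like the other groups. Same-numbered deviations from the group means correlated at 0.063 and -0.037. The deviations of 2 libraries from their mean mirror each other, so these values cannot decide whether replicate numbers pair the samples. With the replicate block 3578 genes rose and 3835 fell, and 7994 elements rose and 10183 fell. With the run of title numbers that links 0 h replicate 3 to the 24 h libraries as a block, 3390 genes rose and 3635 fell. The labels do not say what these numbers stand for. The other counts of genes and elements stayed within 1.5 times the main count. Depth limits the folds of genes with few reads in a group, such as Cpa3 with 6 reads at 24 h.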

Other observations

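The 24 h libraries were set against each other as log2 of CPM + 0.5, replicate 2 minus replicate 1, over features with a mean count of at least 50. Of the 3698 genes that had fallen against 0 h, 71.5% were lower still in replicate 2, with a median difference of -0.16, and of the 3762 that had risen 37.9% were lower in replicate 2, with a median of 0.07. Genes without a call were lower in 49.3% of cases. Among gene lists, 76 of 78 cytosolic ribosomal protein genes were lower in replicate 2 (median -0.29), as were 51 of 64 for ribosome assembly (-0.27) and 18 of 22 for glycolysis (-0.24). The mitosis list went the other way, with 14 of 54 lower in replicate 2 (median 0.20), and all 6 tested globin genes were higher there (median 0.51). Elements showed the same kind of split, with 63.3% of those that had fallen and 35.2% of those that had risen lower in replicate 2. The calls themselves use these libraries, so these values describe the spread within the 24 h group and were not tested.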
